A study of Homo sapiens with 4 samples.

Results

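The miR-23, miR-27 and miR-24 miRNAs are encoded in a pair of paralogous clusters, 1 on chromosome 19 (MIR23A, MIR27A and MIR24-2) and 1 on chromosome 9 (MIR23B, MIR27B and MIR24-1). All names of the count table that belong to these hairpins were taken, which gave 6 of the 746 names listed. The 6 were hsa-miR-23a-5p, hsa-miR-27a-5p and hsa-miR-24-2-5p for chromosome 19 and hsa-miR-23b-5p, hsa-miR-27b-5p and hsa-miR-24-1-5p for chromosome 9, written below without the species prefix. They were picked by name, with their counts in these libraries already known, so their levels are given as a description with no test. The data were miR-seq of U-251, an established human glioma cell line, in 4 libraries labelled as biological replicates of wild-type cells that received the DMSO vehicle. The paper describes basal, non-irradiated cells and names no vehicle, and the labels describe an mRNA capture protocol where the paper names a miRNA library kit. There was 1 group, so no comparison between conditions was possible, and the labels do not say what separates the replicates.

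A miRNA cluster is transcribed as 1 primary transcript, from which the enzymes Drosha and Dicer cut each hairpin and leave a 5p and a 3p strand. A strand loaded into Argonaute pairs with target mRNAs mainly through its seed, bases 2 to 8. For the miR-23, miR-27 and miR-24 hairpins the 3p strand is generally regarded as the main guide, and these families are known for roles in vessel growth, muscle, fat and blood cell differentiation and the cell cycle.

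All 6 names matched RefSeq, whose table is on GRCh38.p14, the build that hg38 stands for. On chromosome 19 the hairpins lie on the minus strand, MIR23A at chr19:13836587-13836659, MIR27A at chr19:13836440-13836517 and MIR24-2 at chr19:13836287-13836359. Each of them overlaps an exon of the long non-coding gene MIR23AHG in the GENCODE annotation. On chromosome 9 they lie on the plus strand within the protein-coding gene AOPEP, MIR23B at chr9:95085208-95085304, MIR27B at chr9:95085445-95085541 and MIR24-1 at chr9:95086021-95086088. MIR23B and MIR27B overlap no exon of AOPEP, whereas MIR24-1 overlaps an exon of an annotated AOPEP transcript. The order of the 3 hairpins along the transcript is the same in both clusters. The chromosome 19 cluster spans 373 bases, with gaps of 69 and 80 bases between hairpins, and the chromosome 9 cluster spans 881 bases, with gaps of 140 and 479 bases.

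**Figure D1:**
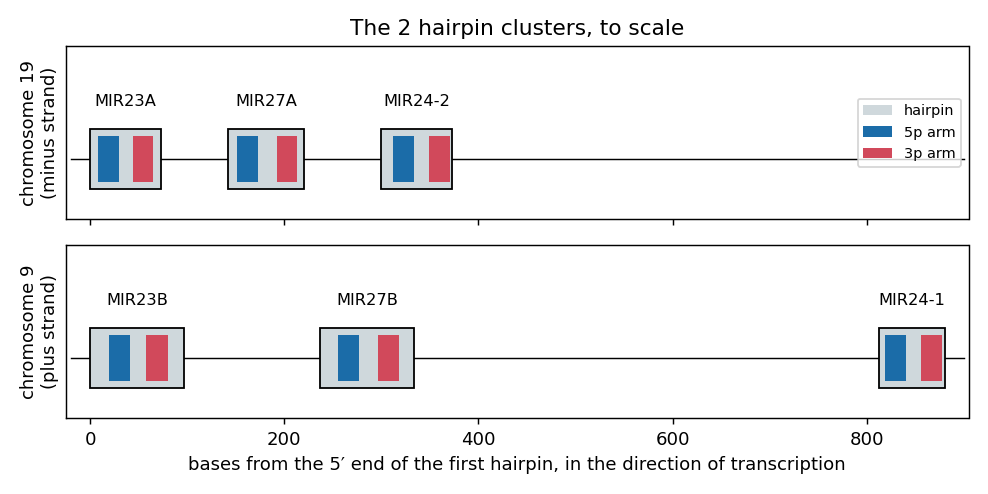
Map of both hairpin clusters, drawn to scale in bases from the 5′ end of the first hairpin in the direction of transcription. Grey boxes are hairpins, blue boxes 5p arms and red boxes 3p arms; the chromosome 9 cluster spans 881 bases against 373 for chromosome 19.

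The mature sequences are shown because the counts below are set against how far the paralogs can be told apart. They are RefSeq sequences read 5′ to 3′, with the seed in capitals. The 5p arms, whose names the count table carries, read:
miR-23a-5p: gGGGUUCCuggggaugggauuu
miR-23b-5p: uGGGUUCCuggcaugcugauuu
miR-27a-5p: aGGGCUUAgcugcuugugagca
miR-27b-5p: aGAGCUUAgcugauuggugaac
miR-24-2-5p: uGCCUACUgagcugaaacacag
miR-24-1-5p: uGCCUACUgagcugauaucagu

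The 3p arms of the same hairpins read:
miR-23a-3p: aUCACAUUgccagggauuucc
miR-23b-3p: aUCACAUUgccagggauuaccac
miR-27a-3p: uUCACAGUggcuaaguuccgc
miR-27b-3p: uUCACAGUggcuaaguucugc
miR-24-3p, from both miR-24 hairpins: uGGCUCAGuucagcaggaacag

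The paralogs differed far more in the 5p arm than in the 3p arm. Compared position by position from the 5′ end, the 5p arms of miR-23a and miR-23b differ at 7 of 22 positions but share the seed GGGUUCC. Those of miR-27a and miR-27b differ at 8 of 22 positions, and the change G3A lies in the seed, so the 5p seeds are GGGCUUA and GAGCUUA. The miR-24 5p arms share the seed GCCUACU and the first 15 bases, and differ at 6 of 22 positions. The 3p arms of miR-23a and miR-23b differ by U19A over the 21 positions they share, and those of miR-27a and miR-27b by C19U. Both changes lie outside the seed, so the 3p seeds UCACAUU and UCACAGU are common to both clusters. The miR-24 hairpins carry the same 22-base 3p arm, with the seed GGCUCAG.

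Total counts lay between 12363104 and 13214969 per library, and levels are given as a percentage of all miRNA counts of the library. Of the 746 names, 538 carried the 5p arm and 18 the 3p arm. Which arm the reads behind the 6 names came from was not tested. Among markers of the cells, miR-21 and miR-10b, both known from glioma lines, held 3.07% ± 1.66 and 0.0435% ± 0.0195 (SD, n = 4). Among those of other cell types, the neuronal miR-124 and the erythroid miR-451a had no value in any library. The highest shares of the others were 0.00181% for the neuronal miR-129, 4.85e-05% and 0.0216% for the erythroid miR-144 and miR-486, and 2.39e-05% and 0.000290% for the white blood cell miR-142 and miR-150. No listed name was that of miR-223, another white blood cell marker.

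Of the 6 names, 4 had a value in every library and each had at least 10 counts there. The 2 others were blank in some libraries although they were abundant in the rest. A blank cell holds no number. For single names and pair ratios it was treated as a missing value rather than as a count of 0. In sums and in library totals it added nothing. For miR-23a-5p, the first hairpin of the chromosome 19 cluster, replicate 2 listed 96580 counts and replicates 1, 3 and 4 were blank. For miR-24-1-5p, the last hairpin of the chromosome 9 cluster, replicate 1 was blank and replicates 2, 3 and 4 listed 104745, 98131 and 97326 counts. Had 0 counts been seen, the 95% upper limit on the expected count would be about 3, or 2.43e-05% of the smallest library. Where listed, the shares were 0.731% for miR-23a-5p and 0.763% to 0.794% for miR-24-1-5p. Among the 156 names with 1000 or more counts in some library, 12 (7.69%) were blank in at least 1 other library. By highest count, miR-24-1-5p and miR-23a-5p were exceeded among these 12 by miR-182-5p alone, with 214667 counts in replicate 1. The step that left these cells blank was not tested.

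Replicate 2 was the only library that listed all 6 names, which then held 3.42% of its counts together. The 4 names listed throughout held 1.87% ± 0.106 (SD, n = 4), with 2.00%, 1.89%, 1.80% and 1.76% in replicates 1 to 4. Summing whatever was listed gave 2.64% ± 0.586 (SD, n = 4), and that spread moved with the number of names listed, which was 4, 6, 5 and 5. With only the higher of the miR-24 names counted in each library, the mean was 2.06% ± 0.399 (SD, n = 4). Whether the same reads were counted under both miR-24 names was not tested.

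**Figure D2:**
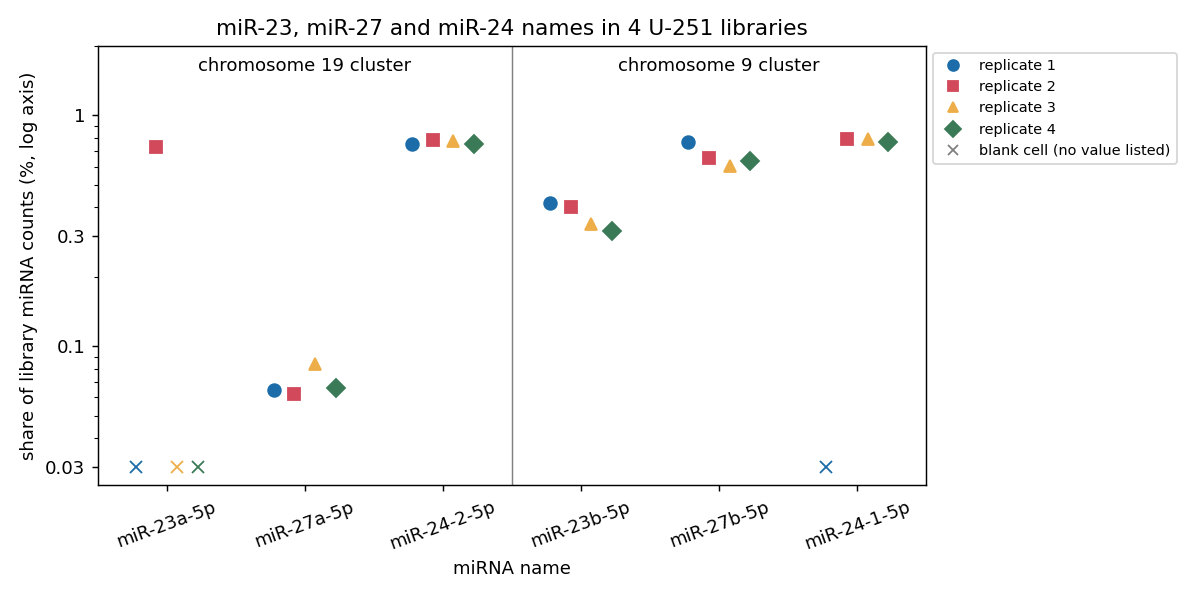
Share of library miRNA counts (percent, log axis) for each of the 6 names in each of the 4 libraries, 1 point per library, with crosses at the bottom for blank cells. The 5 names other than miR-27a-5p lie between 0.315% and 0.794% wherever they are listed, and miR-27a-5p lies between 0.0623% and 0.0836%.

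The miR-24 names had the highest mean shares of the 6 and varied least between libraries, although miR-27b-5p was above miR-24-2-5p in replicate 1. In miR-24-2-5p the shares were 0.752%, 0.779%, 0.778% and 0.749% in replicates 1 to 4, from 94306, 102949, 96244 and 95514 counts. The highest was 1.04 times the lowest, and the mean was 0.765% ± 0.0163 (SD, n = 4). In miR-24-1-5p the shares of replicates 2, 3 and 4 were 0.793%, 0.794% and 0.763%, with a mean of 0.783% ± 0.0172 (SD, n = 3). Both names were lowest in replicate 4 among the libraries that listed both. The SD of the log2 share of miR-24-2-5p, 0.031, was the smallest among the 280 names with at least 10 counts in every library, whose median was 0.29. With upper-quartile, TMM or DESeq2 scaling it stood at position 5, 6 or 7 from the smallest, with SDs of 0.054, 0.046 and 0.053. Library totals leave out whatever stood behind blank cells of abundant names such as miR-182-5p, and the part of this in the order was not tested.

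The miR-27b-5p of chromosome 9 lay close to the miR-24 names. Its shares were 0.765%, 0.652%, 0.603% and 0.632% in replicates 1 to 4, and the mean was 0.663% ± 0.0711 (SD, n = 4). Replicate 1 was the highest, and without it the mean was 0.629% ± 0.0244 (SD, n = 3). The range of miR-27b-5p overlapped that of miR-24-2-5p, which was the higher of the pair in replicates 2, 3 and 4 and the lower in replicate 1, so their order did not hold beyond the spread between libraries. miR-24-1-5p exceeded miR-27b-5p in 3 of the 3 libraries that listed it, by 1.21 to 1.32 times. In replicate 2, the only library that listed miR-23a-5p, that name held 0.731%, which was 1.12 times the share of miR-27b-5p.

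Its neighbour miR-23b-5p was lower. It held 0.419%, 0.402%, 0.340% and 0.315% in replicates 1 to 4, and the mean was 0.369% ± 0.0499 (SD, n = 4). Replicates 1 and 2 were high and replicates 3 and 4 low. Its range lay wholly below that of miR-27b-5p, and miR-27b-5p was higher in 4 of 4 libraries, by 1.62 to 2.01 times, with a mean log2 ratio of 0.85 (SD 0.13, n = 4).

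On chromosome 19, miR-27a-5p was the least abundant of the 6. Its shares were 0.0645%, 0.0623%, 0.0836% and 0.0663% in replicates 1 to 4, from 8084, 8236, 10339 and 8450 counts, with a mean of 0.0692% ± 0.00977 (SD, n = 4). Replicate 3 was the highest, and without it the mean was 0.0643% ± 0.00198 (SD, n = 3). No library of miR-27a-5p reached the lowest share of any other of the 6 names. The miR-24-2-5p of the same cluster was 9.31 to 12.5 times higher, with a mean log2 ratio of 3.48 (SD 0.18, n = 4).

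Where the whole chromosome 19 cluster was listed, in replicate 2, miR-24-2-5p made up 49.6% of its counts, miR-23a-5p 46.5% and miR-27a-5p 3.96%. In the same library, miR-24-1-5p made up 42.9% of the chromosome 9 cluster, miR-27b-5p 35.3% and miR-23b-5p 21.8%. The clusters thus differed most in their middle hairpin. In the other libraries that listed all of chromosome 9, replicates 3 and 4, the shares of miR-27b-5p within its cluster were 34.7% and 37.0%. Added up in replicate 2, chromosome 19 had 207765 counts and chromosome 9 had 243951, a log2 ratio of -0.23, and chromosome 19 held 46.0% of the counts of both (95% Wilson interval 45.8% to 46.1%, counting error only). This ratio has no replicate. Without the miR-24 names the log2 ratio was -0.41, and the mean of the log2 ratios within all 4 libraries, with blanks adding nothing to either cluster, was -0.71 (SD 0.40, n = 4).

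The paralogs of each family were then compared within libraries, where depth and scaling cancel. For miR-27, the chromosome 9 name was the higher in 4 of 4 libraries, by 11.9, 10.5, 7.21 and 9.53 times in replicates 1 to 4. The mean log2 ratio of miR-27a-5p to miR-27b-5p was -3.26 (SD 0.31, n = 4), and the shares of the names did not overlap. Replicate 3, with the highest miR-27a-5p and the lowest miR-27b-5p, gave the smallest ratio. Without 1 replicate at a time the mean log2 ratio lay between -3.40 and -3.16.

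For miR-23 the direction was the opposite in the 1 library that allowed a ratio. In replicate 2, miR-23a-5p had 96580 counts and miR-23b-5p 53108, which is 1.82 times more for chromosome 19, a log2 ratio of 0.86 with a 95% Wilson interval of 0.85 to 0.88 that covers counting error only. No replicate of this ratio was available, and the blanks of the other libraries were not read as low levels.

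For miR-24 the names of both clusters were nearly equal. miR-24-1-5p exceeded miR-24-2-5p by 1.74% in replicate 2, 1.96% in replicate 3 and 1.90% in replicate 4. The mean log2 ratio of miR-24-2-5p to miR-24-1-5p was -0.027 (SD 0.0016, n = 3). Among the 280 names set against miR-24-1-5p over its 3 libraries, miR-24-2-5p had the steadiest ratio, with an SD of 0.0016 on the log2 scale where the median name had 0.19. The excess was small but had the same direction in each of these libraries. The hairpins of these names share a run of 27 bases, which holds the whole 3p arm, so reads from that arm fit both hairpins.

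The other numbered pairs of the table, 5p names of hairpins 1 and 2 of the same miRNA, were set beside miR-24. Including miR-24 there were 5 such pairs, and all 5 have identical 3p arms in RefSeq. Hairpins 1 and 2 of miR-103a differed by a mean log2 ratio of -0.0075 (SD 0.00048, n = 4), those of miR-19b by -0.011 (SD 0.0083, n = 4), those of miR-92a by 0.10 (SD 0.0087, n = 4) and those of miR-29b by 0.31 (SD 0.039, n = 4). The miR-24 pair lay between miR-19b and miR-92a in size. Among names with 1000 or more counts in every library, 4 of 8778 pairs (0.0456%) stayed within 0.05 on the log2 scale of each other in all 4 libraries. They were the pairs of miR-103a, miR-19b, miR-101 (miR-101-5p with miR-101-2-5p) and miR-365 (miR-365a-5p with miR-365b-5p). This limit was chosen after the values were seen, and the miR-24 pair, within 0.028 in each of its libraries, could not be counted because of its blank.

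**Figure D3:**
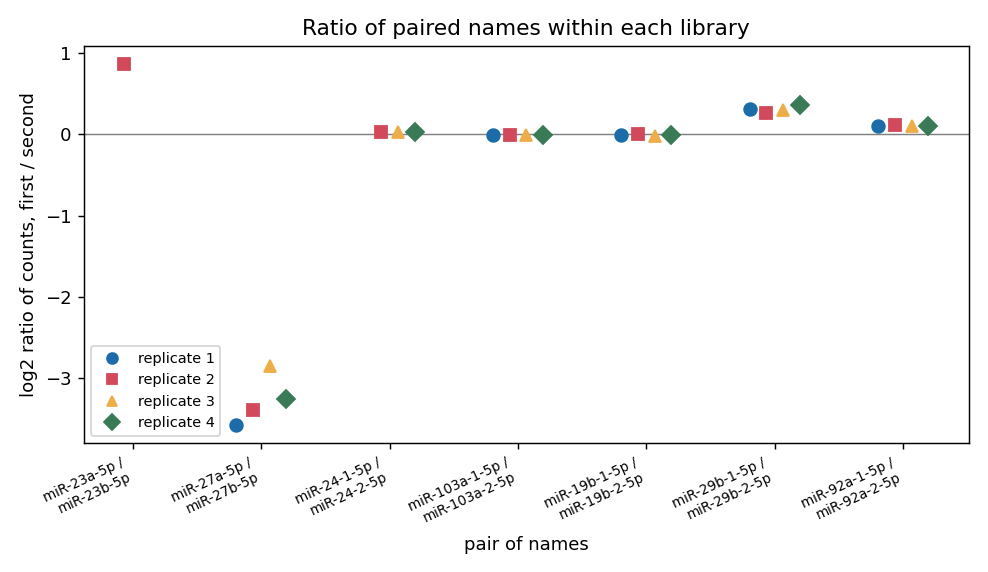
Log2 ratio of counts, first name over second, within each library, 1 point per library, for the miR-23 and miR-27 paralogs and for the 5 pairs of numbered hairpins. The miR-27 ratios lie between -3.57 and -2.85, the only miR-23 ratio is 0.86, and the numbered pairs lie between -0.020 and 0.36.

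Pairs of 5p names whose hairpins have identical 3p arms were set beside pairs whose 3p arms are 1 position apart. Over all 5p names with at least 10 counts in a library and both arms in RefSeq, 7 pairs of names had identical 3p arms, and their counts differed by 1.01 to 1.24 times, with a median of 1.02. In 8 pairs the 3p arms differed at 1 position, and their counts differed by 1.82 to 35.2 times, with a median of 7.16. The groups, chosen after the values were seen, did not overlap, but pairs with 3p arms further apart were in neither. The a and b names of let-7, miR-450 and miR-146, with 3p arms different at 3 of 21, 16 of 22 and 16 of 22 positions, differed on average by 1.09, 1.17 and 1.20 times. Their ratios in single libraries were 0.750 to 1.36, 0.570 to 1.87 and 0.753 to 1.60. The median lettered pair differed by 2.92 times. The share of all other pairs inside either range was not computed. The miR-24 pair was the median of the identical group. In the group 1 position apart, miR-23 was the lowest and miR-27 was exceeded by miR-29a-5p against miR-29c-5p alone. The 5p arms of the identical group differed at 1 to 15 positions. Some names stand in several of these pairs, which are therefore not independent, and no test was made. The sources used here do not say how the authors' counting assigned reads that fit more than 1 hairpin, and its part in these ratios was not tested. None of the values of the 6 names was fractional, whereas 40 other names of the table had fractional values.

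**Figure D4:**
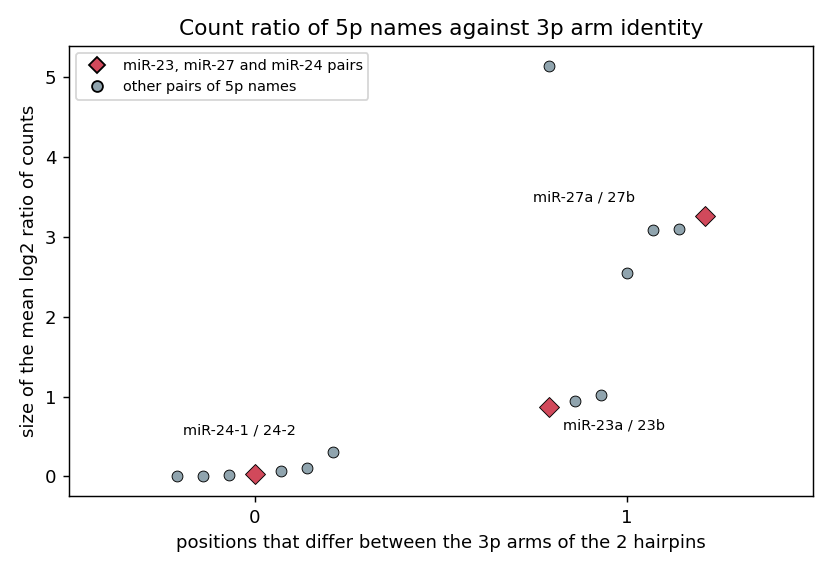
Size of the mean log2 ratio of counts for pairs of 5p names, against the number of positions at which the 3p arms of their hairpins differ; each point is 1 pair, spread sideways for display, and red diamonds are the miR-23, miR-27 and miR-24 pairs. The 7 pairs with identical 3p arms reach at most 0.31, and the 8 pairs with 1 different position start at 0.86. Pairs with more different positions are not drawn.

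Lettered paralogs gave a wider frame for miR-27. Of 23 pairs of a and b names of 1 miRNA with at least 10 counts in every library, the median pair differed by 2.92 times, and 4 pairs differed more than miR-27. The closest was miR-365a-5p with miR-365b-5p, at a mean log2 ratio of 0.016, and the widest was miR-30a-5p over miR-30b-5p, at 5.09.

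How steady the ratio of 2 names of 1 cluster was between libraries was described by the SD of their log2 ratio over the 4 libraries. A small value arises when both names rise and fall in parallel, but also when both hardly vary. For miR-23b-5p and miR-27b-5p of chromosome 9 it was 0.13, and miR-27b-5p stood at position 15 from the smallest among the 279 names set against miR-23b-5p. For miR-27a-5p and miR-24-2-5p of chromosome 19 it was 0.18, and miR-24-2-5p stood at position 28 of the 279 set against miR-27a-5p. That 0.18 is close to the SD of the log2 share of miR-27a-5p alone, 0.19, where miR-24-2-5p had 0.031. It therefore does not show that these names moved together. In the other direction, miR-27a-5p stood at position 68 for miR-24-2-5p, behind miR-27b-5p of chromosome 9 at position 52 (SD 0.17). Over the 3 libraries of miR-24-1-5p, its chromosome 9 neighbours miR-27b-5p and miR-23b-5p stood at positions 30 and 114 of 280, so names of 1 cluster did not always lie close together. Between the paralogs miR-27a-5p and miR-27b-5p the SD was 0.31, close to the median of 0.33 over all names set against miR-27a-5p. Apart from miR-24-2-5p for miR-24-1-5p, the 3 names with the steadiest ratio to each member lay outside both clusters. They were miR-148b-5p, miR-3173-5p and miR-30b-5p for miR-27a-5p (SD 0.050 to 0.060). For miR-27b-5p they were miR-3689f, miR-15a-5p and miR-152-5p (0.055 to 0.066), and for miR-23b-5p they were miR-708-5p, miR-151b and miR-10523-5p (0.045 to 0.070). For miR-24-2-5p they were miR-30a-5p, miR-17-5p and miR-196b-5p (0.037 to 0.061), and for miR-24-1-5p over 3 libraries they were miR-24-2-5p, miR-3689f and miR-17-5p (0.0016 to 0.016). Of these names, miR-3689f had only 0.00041 times the counts of miR-27b-5p, and miR-10523-5p 0.00028 times those of miR-23b-5p. At such low counts the counting error is large beside these SDs, and their place here was not tested.

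The clusters also differed in base composition, and the deviations of single libraries are given beside it. The hairpins of chromosome 19 had a GC content of 57.5% (MIR23A), 60.3% (MIR27A) and 54.8% (MIR24-2), and those of chromosome 9 had 50.5% (MIR23B), 47.4% (MIR27B) and 50.0% (MIR24-1). In replicate 1, the chromosome 9 names miR-23b-5p and miR-27b-5p lay 0.26 and 0.28 above the mean of the other libraries on the log2 scale. In the same library, miR-27a-5p and miR-24-2-5p of chromosome 19 lay at -0.12 and -0.032, where the median of all 280 names was -0.054. In replicate 3 miR-27a-5p lay 0.38 above the others, miR-24-2-5p lay at 0.035, and miR-23b-5p and miR-27b-5p lay at -0.15 and -0.17, where the median was 0.066. In replicate 2 the chromosome 9 names parted, with miR-23b-5p at 0.18 and miR-27b-5p at -0.025, and miR-27a-5p and miR-24-2-5p lay at -0.19 and 0.036. In replicate 4 all 4 names lay below the other libraries, from -0.29 for miR-23b-5p to -0.039 for miR-24-2-5p, where the median was -0.15. A part of GC content in these deviations was not tested. By Dixon's ratio, which compares the gap at the end of a group with its whole range, no library stood apart for any of the 4 names tested, against 31 of all 280 names (11.1%). The highest ratio was 0.814 for miR-27a-5p, under the 95% critical value for 4 samples. The count was also 0 with the other scalings and with log2 shares, which called 28 to 40 of the 280 names.

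By count summed over the libraries, miR-24-2-5p ranked 23, miR-27b-5p 24, miR-24-1-5p 25, miR-23b-5p 31, miR-23a-5p 46 and miR-27a-5p 69 among all names. Blanks lower the summed rank of the names they touch. Within replicate 2, which listed all 6 names but only 456 of the 746 in the table, miR-24-1-5p, miR-24-2-5p, miR-23a-5p and miR-27b-5p took ranks 23 to 26, miR-23b-5p rank 31 and miR-27a-5p rank 76. By the summed rank, miR-191-5p stood just above miR-24-2-5p and miR-29a-5p just below miR-24-1-5p. miR-23b-5p stood between miR-26b-5p and miR-183-5p, miR-23a-5p between miR-7-5p and miR-30c-5p, and miR-27a-5p between miR-379-5p and miR-152-5p.

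A search of RefSeq for other miRNAs with the seed of an arm of these hairpins gave 2 more, miR-23c with the 3p seed of miR-23 and miR-9985 with the 3p seed of miR-27. The name miR-23c was listed with no value in any library, and no listed name was that of miR-9985. On the opposite strand of MIR24-1, GENCODE annotates MIR3074, whose miR-3074-5p had 7, 27.5, 18 and 12 counts in replicates 1 to 4, a trace beside the miR-24 names. Such overlapping hairpins depend on how strand was used in counting, which was not tested.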

How the data were processed

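The authors deposited unnormalized read counts per miRNA name, handled here as estimated counts because 40 names have fractional values. By the paper's methods, adaptors were trimmed with Trimmomatic, reads above a set length discarded, and the rest mapped to hg38 with Bowtie and counted with miRDeep2. The annotation release and the handling of molecular identifiers are not given in the sources used here. The authors normalized by upper quartile in edgeR, a step the deposited values precede.

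The members and lists were chosen with earlier results of these data known. The design did not foresee blank cells in abundant names, so ratios used only libraries that list both sides. Shares, ratios, Wilson intervals and Dixon's ratio were computed with Python 3.11.15, pandas 2.3.3 and numpy 2.4.6. Scaling factors came from edgeR 4.0.16 and DESeq2 1.42.0, on counts rounded to whole numbers. With 1 group no model was fitted. Depth was 12363104 to 13214969 counts per library. Simulated counts were used to check Dixon's ratio and the recovery of a set count ratio. They held no blank cells and no reads shared between hairpins, so they do not bear on those limits. Sequences and coordinates are from RefSeq (GRCh38.p14), which matched 674 of the 746 names, and host genes from GENCODE release 44.

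Names other than the 6 followed a rule: the 3 names of steadiest ratio per member, pairs of numbered hairpins, the closest and widest lettered pair, neighbours by rank and names sharing a seed. miR-182-5p, miR-101-5p, miR-101-2-5p, miR-29c-5p and miR-3074-5p, and the 3p identity groups, were chosen after their values were seen. So were the lettered pairs of let-7, miR-450, miR-146, miR-196 and miR-15 set beside those groups.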

Additional observations from a re-analysis of the deposited data

How the results depend on the processing

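The share held by the 6 names, 2.64% of all miRNA counts, was 7.06% with the Let-7 names left out of the denominator, which follows from the smaller denominator. Under settings added once the data had been seen, the names listed in every library alone held 1.87%, and in the only library that lists all 6 the share was 3.42%, both by construction. Under settings added in the same way, the log2 ratio of the chromosome 19 to the chromosome 9 cluster, -0.23, was -0.71 (SD 0.40, n = 4) as the mean over all libraries with blanks adding nothing, and -0.41 without the miR-24 names. The other 43 recomputed values stayed within the spread between libraries, or within the counting interval or 1.5 times the count where no spread exists, and none changed sign. These limits are wide. The SD of the 6-name share, 0.586, moved with the blanks, so 2.06% with the miR-24 names counted once, a setting also added later, stayed within it. The number of names with at least 10 counts in every library, 4, was 6 with no filter and stayed within 1.5 times. Ratios within a library cannot move with scaling. No value of the miR-23 ratio or of the cluster ratio could be had without replicate 2, and without replicate 1, 3 or 4 they are the same single value. Summing their counts over libraries returns that value too, and the miR-24 ratio without replicate 1 is its main value. These settings could not move, although they are counted among the 43. No paired analysis was possible because there is a single group of samples. Depth limits little for the 6 names, since their smallest listed value is 8084 counts, and the blanks and the number of libraries limit more. For names of few counts set beside them, depth does limit.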
